A study of Sus scrofa with 6 samples.

Results

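The genes described here encode the collagens, laminins and other structural proteins of the extracellular matrix, and the measurement was the accessibility of their chromatin in embryonic pig somites and myotomes. The list held 40 genes, and each was followed through a window made of its gene body and the 2 kb before its start in the Sscrofa11.1 assembly. A window was found for 38 of the 40 genes, among 28224 gene windows on the chromosomes. COL6A1 was not matched by its symbol and COL6A2 was annotated on an unplaced scaffold that held no peak, so neither was analysed here. By role, the 38 comprised 5 fibrillar collagens, 13 basement membrane genes, 4 other collagens and 16 other matrix genes.

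The study profiled 6 single-cell ATAC-seq libraries, a design of 3 stages by 2 breeds. Somites were taken at embryonic day (E) 18 and E21 and myotomes at E28 from Tibetan pigs (ZZ) and from crosses of Duroc with Tibetan pigs (DZ). Each library pooled 5 embryos of 1 sow, and there was 1 library for each stage and breed. The 2 libraries of a stage, 1 of each breed, therefore served as its replicates, breed was compared over 3 pairs, and p-values measure the spread among these 6 pools. Stage and dissected tissue cannot be told apart between E28 and the earlier stages.

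Fibrillar collagens form the tension-bearing fibers of connective tissue and are made mainly by fibroblasts and other mesenchymal cells. Basement membranes are thin sheets built on networks of laminin and type IV collagen, linked by nidogens and heparan sulfate carriers such as perlecan and COL18A1. In the somite such a sheet borders the myotome, and each later muscle fiber is wrapped in one that is rich in the laminin alpha 2 chain.

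Levels are given as CPM, the Tn5 cut-site counts in the peaks of a window or region per 1000000 counts in all peaks of that library, over barcodes of 2000 to 30000 counts. Where a pair of values is given for a stage, ZZ comes first. Of 64439 barcodes 58809 were kept, 9286 to 11243 a library, with totals of 89816504 to 133037579 counts. Peaks had been called in each library separately, and the length they covered fell from 191 and 168 Mb at E18 to 102 and 108 Mb at E28, so window totals move with the length called as well as with signal. Any 2 libraries had 135 to 189 barcode sequences in common. Levels of marker windows are given as a description. Counts were present in 23867 of 28224 gene windows, so counts in a marker window do not show that a cell type was present. The summed level of the 13 myogenic markers was 707 to 829 CPM. Summed levels of the 8 epithelial markers went from 339 and 333 CPM at E18 to 171 and 176 CPM at E28. Those of the 5 cardiac markers went from 314 and 290 to 115 and 166 CPM and of 9 neuron markers from 467 and 469 to 347 and 367 CPM, while the 11 mesenchymal markers stood between 991 and 1114 CPM. Fewer cells of a type and lower accessibility per cell cannot be told apart in these summed levels.

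From E18 to E28, 4 of 5 fibrillar collagen windows rose, and the falls over whole windows were in basement membrane genes. With covered length as an offset in the fit, 2 of 5 fibrillar collagen windows rose. This offset was the log covered length of a window minus the mean of that log over the fitted windows of the library. It sets a window against the general change in covered length and does not give counts per covered base. Whether the role groups differed from each other was not tested. Of the 38 windows, 19 were more accessible at E28 and 6 less, against 20.6% of all windows higher and 21.8% lower (edgeR quasi-likelihood test, adjusted p under 0.05). The higher windows held 4 of 5 fibrillar collagens, 3 of 4 other collagens, 10 of 16 other matrix genes and 2 of 13 basement membrane genes, and all 6 lower windows were basement membrane genes. The median log2 difference was 0.36 over the 38 windows and -0.04 over all windows. It was 0.60 for fibrillar collagens, 0.91 for other collagens, 0.50 for other matrix genes and -0.05 for basement membrane genes. Without the E18 DZ library the number called was 7 of 38, while leaving out any other library gave 18 to 23. Over all windows 5.26% were called without E18 DZ and 18.3% to 40.8% without another library, against 42.4% with all 6.

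**Figure D1:**
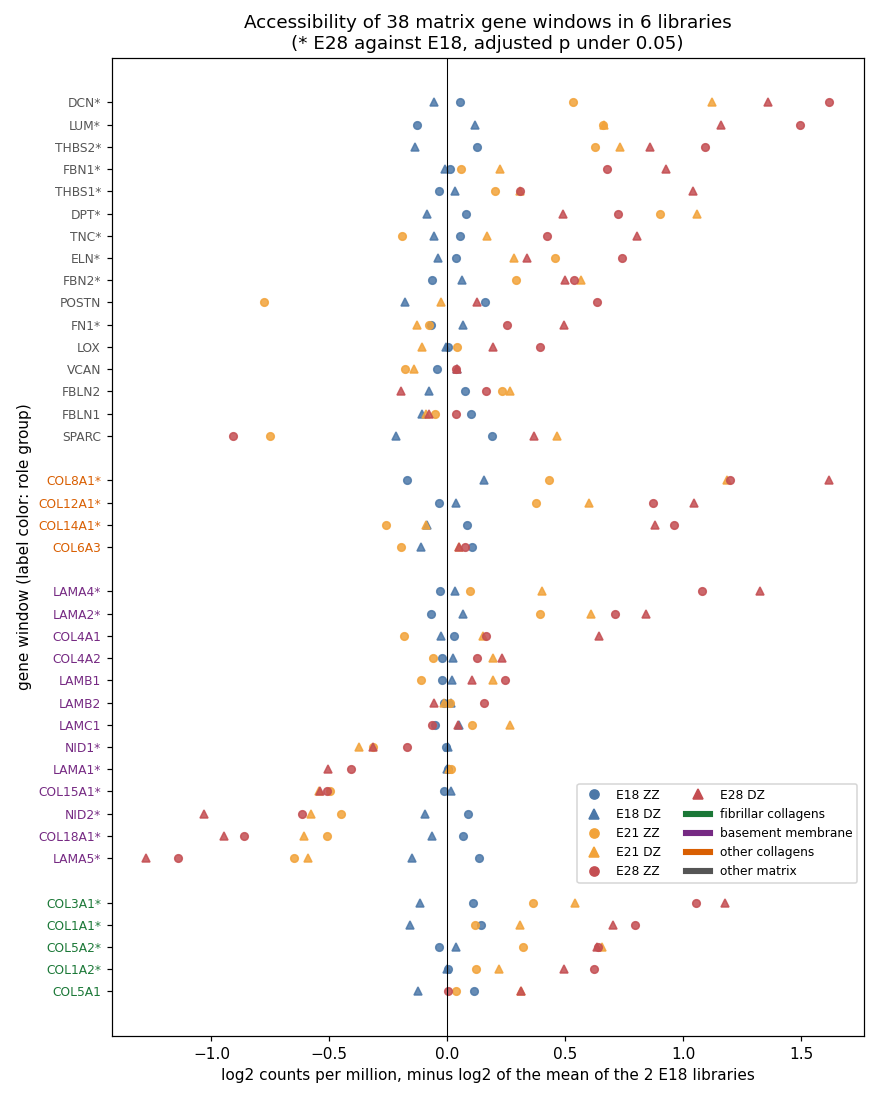
Each row is 1 of the 38 gene windows and each point 1 library, placed by its log2 CPM minus the log2 of the mean of the 2 E18 libraries. Circles are ZZ, triangles DZ, and label colors mark the role groups. All 6 starred genes to the left of zero are basement membrane genes, and DCN, LUM and COL8A1 lie among the farthest to the right.

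Type I and III collagens, which build the bulk of connective tissue fibers, rose together. The COL3A1 window (gene at chr15:93556914-93595678) measured 23.9 CPM in E18 ZZ, 20.4 in E18 DZ, 28.5 in E21 ZZ, 32.2 in E21 DZ, 45.9 in E28 ZZ and 50.01 in E28 DZ. Every E28 value was above every earlier one, and the log2 difference between E28 and E18 was 1.08 ± 0.14 (SE, adjusted p = 0.00731). COL1A1, the main chain of type I collagen (chr12:26379087-26397180), measured 67.8 and 55.0 CPM in the ZZ and DZ libraries of E18. The E21 pair read 66.6 and 75.9 CPM and the E28 pair 107 and 99.9 CPM. Its log2 difference was 0.72 ± 0.14 (adjusted p = 0.0146), although the length covered by its peaks at E28 was 0.496 of that at E18. Its partner chain COL1A2 went from 40.6 and 40.5 CPM to 62.4 and 57.1 CPM (log2 0.52, adjusted p = 0.0116). COL5A2, a type V chain that sets fiber diameter, went from 126 and 132 CPM to 201 and 201 CPM (log2 0.60 ± 0.10, adjusted p = 0.0117). The other type V chain, COL5A1, overlapped between the stages at 106.4 to 125.4 CPM at E18 and 116 to 144 CPM at E28 (adjusted p = 0.578).

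COL1A1 and COL3A1 rose at their gene starts as well. The COL1A1 region that holds the start measured 51.4 and 43.5 CPM at E18 and 103 and 97.9 CPM at E28 (log2 1.03 ± 0.14, adjusted p = 0.00510), with covered lengths within 1.25 times in all 6 libraries. By contrast a region at the far end of COL1A1 (chr12:26377180-26382830, chosen after its values were seen) went from 13.1 and 9.28 CPM to 3.77 and 2.46 CPM, with covered lengths that differed 6.06 times. At the start of COL3A1 the level went from 13.02 and 10.0 CPM to 36.0 and 35.5 CPM (log2 1.59 ± 0.18, adjusted p = 0.00355).

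Among the other collagens the largest rise was in COL8A1, a short-chain collagen of vessel walls and the eye (chr13:159216138-159374718). Its window measured 35.2 and 44.1 CPM in the E18 pair, 53.4 and 90.2 in the E21 pair and 91.0 and 122 in the E28 pair (log2 1.38 ± 0.13, adjusted p = 0.00448). COL12A1, which decorates the surface of collagen fibers in tendon and muscle sheaths, went from 71.5 and 75.2 CPM to 134.2 and 151.2 CPM (log2 0.92 ± 0.09, adjusted p = 0.00448). COL14A1, a related fiber-associated collagen, stayed at 37.0 to 46.9 CPM through E18 and E21 and stood at 86.2 and 81.6 CPM at E28 (log2 0.89 ± 0.11, adjusted p = 0.00672). The COL14A1 difference turned negative, without passing, with the offset (-0.13), over comparable regions alone (-0.25) and at the promoter (-0.36). COL6A3, a chain of the microfibrillar type VI collagen, overlapped between E18 (38.3 and 32.9 CPM) and E28 (37.5 and 36.9 CPM).

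The laminin alpha chains, the long arms through which laminin binds cells, changed in opposite directions. LAMA5 (chr17:61698370-61747795) fell from 117 and 96.1 CPM (E18) through 68.0 and 70.7 (E21) to 48.3 and 43.9 (E28; log2 -1.24 ± 0.11, adjusted p = 0.00429). LAMA1, the alpha chain of the earliest embryonic laminin, held at 72.6 to 73.5 CPM through E21 and stood at 54.9 and 51.3 CPM at E28 (log2 -0.49 ± 0.07, adjusted p = 0.00906). LAMA4, an alpha chain of vessels and mesenchymal tissues (chr1:78071990-78224564), rose from 59.8 and 62.4 CPM to 129 and 153 CPM (log2 1.17 ± 0.10, adjusted p = 0.00403). Its difference was 0.03 (adjusted p = 0.832) over regions of comparable covered length alone and 0.34 (adjusted p = 0.110) at the promoter. With covered length as an offset it was 0.45 (adjusted p = 0.00897). LAMA2, the alpha chain of muscle basement membrane (chr1:33765412-34359741), rose from 55.5 and 61.0 CPM through 76.5 and 88.9 at E21 to 95.2 and 105 CPM (log2 0.74 ± 0.08, adjusted p = 0.00517). The LAMA2 difference no longer passed with covered length as an offset (0.26, adjusted p = 0.0675), in comparable regions alone (0.41, adjusted p = 0.119) or at the promoter (0.62, adjusted p = 0.0840). In each of the 4 genes the E18 and E28 libraries did not overlap, as in 29 of the 38 members and in 78.7% of all windows.

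**Figure D2:**
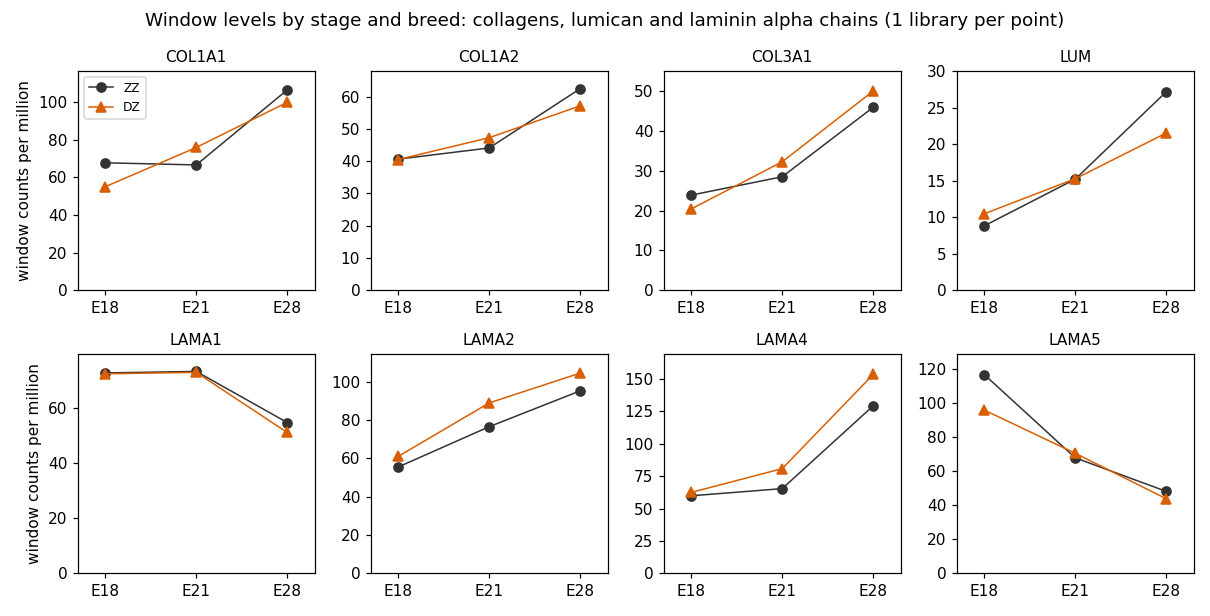
Window level in CPM (vertical axis, from zero) by stage for 3 fibrillar collagens, lumican and 4 laminin alpha chains, 1 library per point, ZZ in black circles and DZ in orange triangles. LAMA5 and LAMA1 end lowest at E28, and COL1A1, COL1A2, COL3A1, LUM, LAMA2 and LAMA4 end highest there in both breeds.

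The remaining laminin chains did not pass the test over whole windows. LAMB1 measured 83.3 and 85.9 CPM at E18 and 100 and 91.0 at E28, LAMB2 53.7 and 54.8 against 60.4 and 52.1, and LAMC1, the gamma chain shared by most laminins, 86.9 and 93.2 against 86.0 and 92.8. Over comparable regions alone LAMB1 was higher (1.25, adjusted p = 0.00180). Nidogens, the linkers between laminin and type IV collagen, were lower at E28 over whole windows. NID2 fell from 81.4 and 71.8 CPM to 50.02 and 37.4 CPM (log2 -0.85 ± 0.09, adjusted p = 0.00567) and NID1 from 92.0 and 92.5 CPM to 82.0 and 74.1 CPM (log2 -0.28 ± 0.08, adjusted p = 0.0389), a call kept in 1 of the 6 fits without a library. NID2 had the lowest covered-length ratio of E28 to E18 among the members, 0.326. Once that length entered the fit as an offset its difference was 0.08 (adjusted p = 0.689), so that its call ended and its direction turned. Over comparable regions alone NID2 (-0.54, adjusted p = 0.0170) and NID1 (-0.63, adjusted p = 0.00851) were lower. COL18A1 and COL15A1, the basement membrane collagens whose ends are released as endostatin-type fragments, fell as well. COL18A1 (chr13:207907835-207984082) went from 222 and 203 CPM through 149 and 140 to 117 and 110 CPM (log2 -0.94 ± 0.08, adjusted p = 0.00387), and COL15A1 from 79.1 and 80.6 CPM to 56.1 and 54.9 CPM (log2 -0.56 ± 0.07, adjusted p = 0.00733).

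COL4A1 and COL4A2, the main chains of the sheet-forming type IV collagen, did not pass over whole windows. COL4A1 measured 82.7 and 79.5 CPM at E18 and 90.8 and 127 CPM at E28 (log2 0.36 ± 0.15, adjusted p = 0.113), and COL4A2 206 and 213 against 229 and 246 CPM (log2 0.14 ± 0.08, adjusted p = 0.218). Over comparable regions alone COL4A2 was lower (-0.49, adjusted p = 0.00733) and COL4A1 higher (0.30, adjusted p = 0.0476), and COL4A1 also passed with the offset (0.42, adjusted p = 0.00620). These genes lie head to head on chromosome 11 with overlapping starts, so they share the peaks of their start region.

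Of the other matrix genes, the small leucine-rich proteoglycans that coat collagen fibers had the largest rises over whole windows, though neither passed with the offset. DCN went from 12.4 and 11.5 CPM through 17.2 and 25.9 to 36.5 and 30.6 CPM (log2 1.46 ± 0.22, adjusted p = 0.00942), and its neighbor LUM from 8.81 and 10.5 CPM through 15.2 and 15.3 to 27.2 and 21.5 CPM (log2 1.30 ± 0.17, adjusted p = 0.00722; with the offset 0.41, adjusted p = 0.0698). DCN and LUM passed at the promoter (1.54, adjusted p = 0.0249, and 1.81, adjusted p = 0.00849), and DCN over comparable regions alone (1.40, adjusted p = 0.00712). THBS2, a matricellular thrombospondin, went from 19.4 and 16.2 CPM to 37.96 and 32.3 CPM (log2 0.95 ± 0.13, adjusted p = 0.00767). The microfibril gene FBN1 (log2 0.77), THBS1 (0.65), DPT (0.57), TNC (0.57), elastin ELN (0.51), FBN2 (0.49) and fibronectin FN1 (0.34) also rose. When each library in turn was left out, DPT kept its call in 0 of 6 fits, FN1 and THBS1 in 1, TNC in 2 and FBN2 in 3. For DPT, which binds decorin, the highest stage was E21, at 16.6 and 18.5 CPM against 9.40 and 8.38 at E18 and 14.7 and 12.5 at E28. POSTN, FBLN1, FBLN2, SPARC, VCAN and LOX did not pass, with log2 differences from -0.37 for SPARC to 0.36 for POSTN, whose 6 levels lay between 1.61 and 4.29 CPM. With covered length in the fit POSTN (0.76), FBLN1 (0.39) and FBLN2 (0.31) were called higher and LOX (-0.80) lower, and comparable regions alone called POSTN (1.24) and FBLN1 (1.46) higher.

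Covered length changed with stage in every role group. Over the 6 lower windows the E28 to E18 ratio of covered length was 0.326 to 0.623, and over the 19 higher windows it was 0.496 to 1.82, above 1 in 8. With each library's covered length as an offset, 10 windows were higher (12.4% of all windows under this setting) and 4 lower, LAMA1, LAMA5, COL18A1 and LOX (25.3% of all windows). Under it LAMA5 stood at log2 -0.67 (adjusted p = 0.000741) and COL1A1 at 1.05 (adjusted p = 5.8e-05). Of the 19 higher windows 13 lost their call under the offset, and 7 of these changed sign, namely COL12A1 (-0.01), COL14A1 (-0.13), DCN (-0.07), FBN1 (-0.13), FBN2 (-0.08), FN1 (-0.02) and THBS1 (-0.31). Among the fibrillar collagens COL1A1 and COL3A1 (0.51, adjusted p = 0.0103) passed, and COL1A2 (0.14, adjusted p = 0.377) and COL5A2 (0.01, adjusted p = 0.964) did not. The covered length of COL5A2 at E28 was 0.96 of that at E18, and the offset is relative to each library's mean. Of the 6 lower windows NID1 (-0.10), NID2 (0.08) and COL15A1 (-0.21) lost their call. Counting comparable regions alone, 33 windows could be tested, of which 13 were higher (15.1% of all such windows) and 4 lower (17.2%), with 3 of 5 fibrillar collagens among the higher. Each of the 4 called fibrillar collagens also lost its call in at least 1 fit without a library, with the highest adjusted p at 0.0967 for COL1A1, 0.0978 for COL1A2, 0.0565 for COL3A1 and 0.0975 for COL5A2. The part of the length called in these differences was not tested further.

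**Figure D3:**
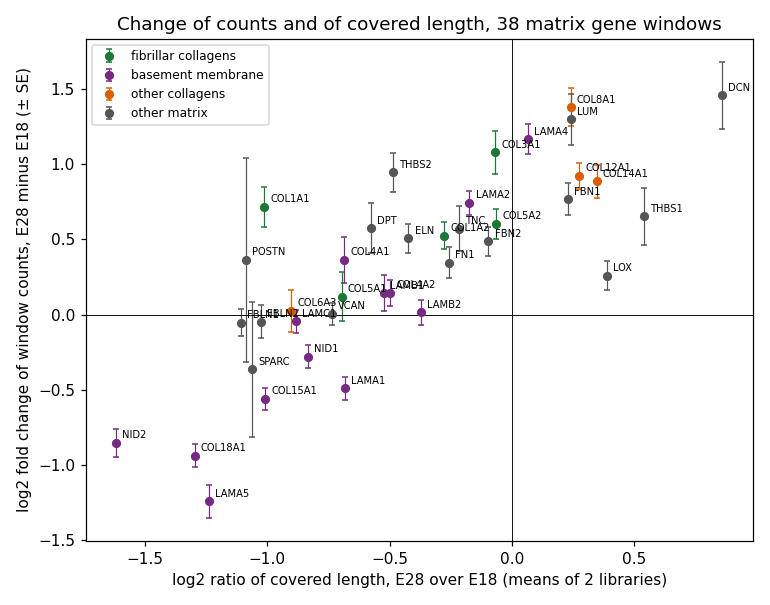
Log2 fold change of window counts, E28 minus E18, with SE bars (vertical axis) against the log2 ratio of covered length (horizontal axis) for the 38 windows, colored by role. NID2, COL18A1 and LAMA5 lost most covered length and counts, DCN gained most of both, and COL1A1 rose although its covered length fell.

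Promoters and gene bodies did not always move together. In a window cut to 2 kb before and 500 bp after the start, 36 genes were tested, 9 were higher at E28 (14.9% of all such windows) and 7 lower (16.6%). Fibrillar collagens kept 4 of 5 higher windows in that window, with a median of 0.46. With the offset the start regions of COL1A1, COL1A2 and COL3A1 passed, and that of COL5A2 (0.18, adjusted p = 0.361) did not. The COL5A2 start region also lay in the window of WDR75, so its counts cannot be assigned to 1 of these genes. Basement membrane genes had 6 lower (COL15A1, COL18A1, LAMA1, LAMA5, LAMB1 and NID1) and 0 higher, with a median of -0.40. Covered lengths at the starts of COL15A1, COL18A1, LAMA5 and LAMB1 differed by over 1.5 times between E18 and E28. With the offset the start regions of COL15A1 (adjusted p = 0.139), COL18A1 (0.0583) and LAMB1 (0.179) did not pass. Those of LAMA1, LAMA5 and NID1 did. LAMB1 and FBLN1, neither of which passed over the whole window, fell at the promoter (log2 -0.54, adjusted p = 0.0312, and log2 -0.60, adjusted p = 0.0422). With covered length as an offset their start regions stood at -0.24 (adjusted p = 0.179) and -0.12 (adjusted p = 0.516), so neither fall passed there. Both genes held a rising intronic region, described below. COL8A1 (-0.44, adjusted p = 0.275) and COL14A1 (-0.36, adjusted p = 0.0923) were negative at the promoter without passing, while their whole windows rose. The region at the start of COL8A1 measured 5.19 and 6.62 CPM at E18 and 4.63 and 4.82 CPM at E28, and an intronic region 75538 bp downstream, chosen after its values were seen and with covered lengths that differed 2.25 times, went from 1.13 and 2.39 CPM to 10.4 and 12.2 CPM.

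The position of E21 is described for windows chosen by their difference between E18 and E28, a choice that favors a level in between. The share among all called windows was not counted. Of the 19 windows higher at E28, the mean level of E21 lay between those of E18 and E28 in 15, nearer to E18 in 7 and nearer to E28 in 8; COL14A1, FN1, TNC and DPT were the exceptions. Of the 6 lower windows, 4 lay between and all 4 nearer to E28; the exceptions were LAMA1 and NID1. Between E18 and E21, 0 members rose by edgeR's test (0.803% of all windows), with 11 higher (15.8% of all windows) and 5 lower (13.3%) at an unadjusted p under 0.05 and 18 called in either direction by DESeq2 (34.1% of all windows), and COL18A1 (log2 -0.56 ± 0.08, adjusted p = 0.0450) and COL15A1 (log2 -0.52 ± 0.07, adjusted p = 0.0476) fell (1.13% of all windows). Between E21 and E28, COL14A1 (log2 1.06 ± 0.11, adjusted p = 0.0216), LAMA4 (0.92 ± 0.10, adjusted p = 0.0232) and FBN1 (0.63 ± 0.11, adjusted p = 0.0417) rose (0.940% of all windows), and LAMA5 (-0.63 ± 0.11, adjusted p = 0.0451) and LAMA1 (-0.50 ± 0.07, adjusted p = 0.0358) fell (4.77% of all windows).

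These later and earlier steps rested on few libraries. For E21 against E18 the calls were lost without any one of the 4 E18 and E21 libraries and rose in number without either E28 library. For E28 against E21 they were lost without either E21 library, fell in number without E18 ZZ, E18 DZ or E28 DZ, and rose without E28 ZZ. Over all windows the number called moved in the same direction in each of these fits. Whether E21 differs from E18 at fewer genes than E28 does was not tested.

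No member differed between the breeds in the main test (0.00429% of all windows were called), with adjusted p from 0.825 upward and unadjusted p under 0.05 in 5 of 38 windows (5.10% of all windows). The log2 differences of DZ minus ZZ ran from -0.21 for NID2 to 0.74 for SPARC, with a median of 0.04 and a median SE of 0.085. COL8A1 was higher in DZ at each stage (44.1 against 35.2 CPM at E18, 90.2 against 53.4 at E21 and 122 against 91.0 at E28), a log2 difference of 0.53 ± 0.10. LAMA2 was also higher in DZ at each stage, by a log2 difference of 0.19 ± 0.06. Peaks of COL8A1 covered more in DZ at each stage (12499 against 11874 bp at E18, 18201 against 13696 at E21 and 15401 against 13413 at E28). Those of LAMA2 covered more in DZ at E21 and E28 and less at E18. The part of covered length in these 2 differences was not tested. DESeq2's Wald test called these 2 windows (adjusted p = 0.000126 and 0.0164) and no other member, against 2.26% of all windows. In the same test 1 member region passed (0.202% of all regions), an intronic region of COL8A1 (chr13:159253778-159254886) at 1.92, 1.71 and 8.99 CPM in ZZ and 3.02, 4.93 and 27.7 CPM in DZ, from E18 to E28 (log2 1.33, adjusted p = 0.00829). By edgeR 0 member regions were called in this comparison (0% of all regions), with 18 of 214 higher (3.15% of all regions) and 2 lower (1.79%) in DZ at an unadjusted p under 0.05.

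Merging the peaks of all libraries gave 294825 regions, of which 813 lay in the members' windows, and 12 of the gene and region pairs also lay in the window of another protein-coding gene. Of the 813, 214 held a peak in all 6 libraries (26.3%, against 26.6% of all regions), 110 in both E18 libraries alone (13.5% against 12.7%) and 23 in both E28 libraries alone (2.83% against 2.24%). None held a peak in all ZZ libraries and no DZ library (0.0295% of all regions) or the reverse (0.0661% of all regions). The 214 shared regions were tested. Of these, 72 were higher at E28 (19% of all regions) and 36 lower (18.1% of all regions). Leaving out E18 ZZ gave 59 calls (21.6% of all regions) and leaving out E18 DZ 41 (11.13%), against 37.1% of all regions with every library.

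Where covered lengths stayed within 1.5 times among the E18 and E28 libraries, 76 member regions remained, with 34 higher (24.0% of such regions) and 4 lower (4.60% of such regions). At gene starts 15 of 25 such regions were higher (31.8% of comparable regions at the start of any gene), DCN, COL3A1, POSTN, ELN and COL1A1 with the largest differences among them, and those of LAMA1 and NID1 lower (6.68%). Between E18 and E21, 22 of the 214 regions were higher (4.80% of all regions) and 5 lower (1.78% of all regions), and between E21 and E28, 13 were higher (2.53% of all regions) and 6 lower (4.61% of all regions). The LAMB1 region described below (log2 1.47, adjusted p = 0.0396) and a COL5A2 intron (1.35, adjusted p = 0.0309) were the largest rises of comparable length in the first step, and the starts of LAMA5 (-0.67, adjusted p = 0.0281) and COL18A1 (-0.47, adjusted p = 0.0289) the falls. The calls of both steps, 27 and 19, were all lost without either E21 library, as were those over all regions. In the first step they fell without an E18 library and rose without an E28 library, over all regions as among the members. In the second step they rose without E28 ZZ, again over all regions as well.

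**Figure D4:**
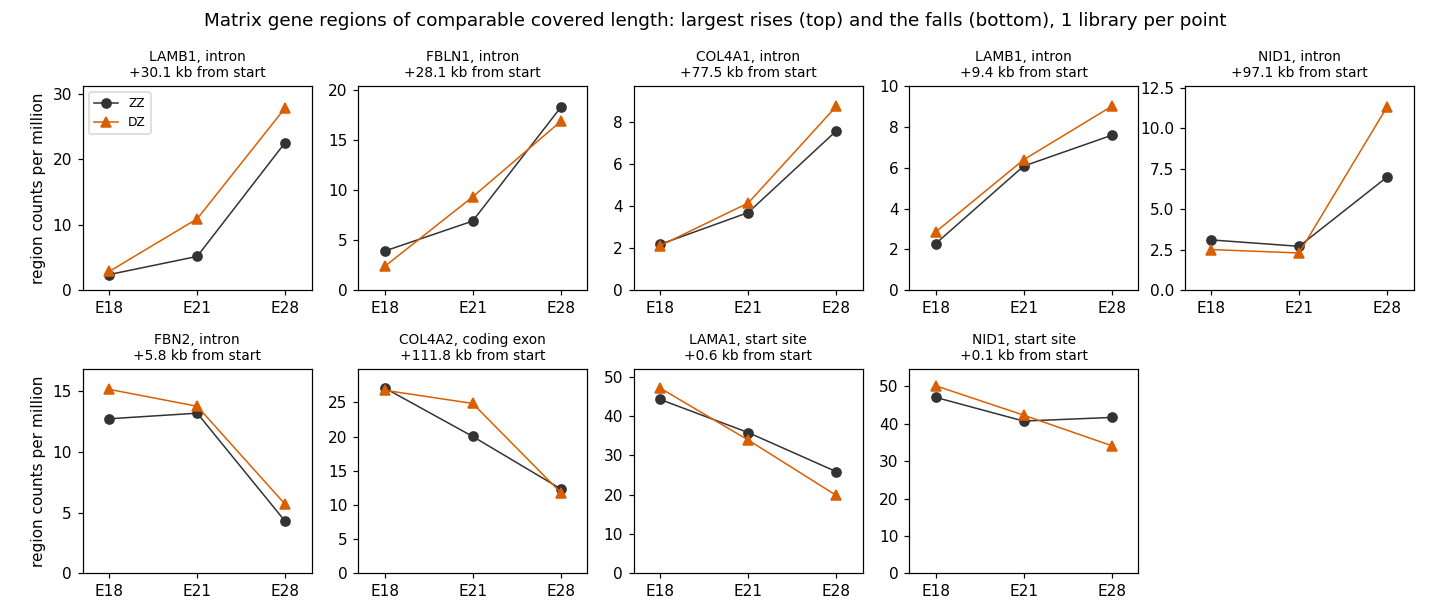
Region level in CPM (vertical axis, from zero) by stage for the 5 largest rises (top) and the 4 falls (bottom) among member regions of comparable covered length, 1 library per point, ZZ in black circles and DZ in orange triangles. The panel titles give the distance of the region's center from the gene start, and in each panel both E28 values lie outside the range of the E18 values.

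The largest rises in regions of comparable length lay in introns of LAMB1, FBLN1, COL4A1 and NID1. A region 30132 bp into LAMB1 (chr9:107716369-107717851) measured 2.38 and 2.85 CPM in the E18 pair, 5.16 and 10.9 in the E21 pair and 22.6 and 27.9 in the E28 pair (log2 3.21 ± 0.29, adjusted p = 0.00270). A second LAMB1 region, 9441 bp from the start, went from 2.28 and 2.85 CPM to 7.59 and 9.01 CPM (log2 1.65 ± 0.24). In FBLN1, which encodes a fibulin of elastic fibers and basement membranes, a region 28084 bp from the start (chr5:3898294-3899895) went from 3.91 and 2.37 CPM to 18.3 and 16.9 CPM (log2 2.44 ± 0.34, adjusted p = 0.00539). Over the same stages the start regions of both genes fell, from 53.5 and 53.4 to 43.9 and 36.5 CPM for LAMB1 and from 44.1 and 40.4 to 32.8 and 26.7 CPM for FBLN1, with covered lengths outside the 1.5-fold limit.

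A COL4A1 intron region (chr11:76919225-76920583) rose from 2.18 and 2.12 CPM to 7.57 and 8.74 CPM (log2 1.87 ± 0.27, adjusted p = 0.00592). One in NID1, 97107 bp from the start, rose from 3.10 and 2.51 CPM to 6.99 and 11.3 CPM (log2 1.65 ± 0.36, adjusted p = 0.0177), while the NID1 start region fell from 47.1 and 50.2 CPM to 41.7 and 34.2 CPM (log2 -0.41 ± 0.11, adjusted p = 0.0352). Leaving out 1 library raised the adjusted p above 0.05 for the COL4A1 region (up to 0.0617), the second LAMB1 region (0.0565), the NID1 intron (0.151) and the NID1 start (0.211).

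The falls were an FBN2 intron region (chr2:131363913-131365042), from 12.7 and 15.1 CPM (E18) and 13.2 and 13.8 CPM (E21) to 4.29 and 5.69 CPM (E28; log2 -1.53 ± 0.21, adjusted p = 0.00499), a COL4A2 region over a coding exon (chr11:77107167-77110262), from 27.1 and 26.8 CPM to 12.4 and 11.8 CPM (log2 -1.20 ± 0.16, adjusted p = 0.00478), and the starts of LAMA1 (44.2 and 47.1 to 25.9 and 19.9 CPM, log2 -1.05 ± 0.12, adjusted p = 0.00374) and NID1. Elsewhere in COL4A2, a region near its far end (chr11:77122646-77129452, chosen after its values were seen) went from 40.3 and 38.3 CPM to 71.9 and 71.3 CPM.

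A coding-exon region of LAMA4, 37965 bp from the start (chr1:78185133-78188065), was chosen after its values were seen, since its covered length differed 7.88 times among the libraries. It measured 0.759 and 0.898 CPM in the E18 pair, 6.46 and 12.7 in the E21 pair and 44.2 and 56.9 in the E28 pair and is given with no test. The start region of LAMA4, by comparison, went from 19.3 and 21.3 CPM to 26.1 and 29.9 CPM (adjusted p = 0.0605). In LAMA2 a coding-exon region (chr1:33915049-33915991) rose from 3.39 and 3.48 CPM at E21 to 10.9 and 14.2 CPM at E28 (log2 1.87, adjusted p = 0.0257), from 0.895 and 1.19 CPM at E18. In the same step the LAMB1 intron rose by log2 1.74 (adjusted p = 0.0295), and the FBN2 intron (-1.42, adjusted p = 0.0268) and the COL4A2 exon region (-0.87, adjusted p = 0.0372) fell.

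The middle 300 bases of the stretch under a peak in all 6 libraries are given for the first 3 rises and the first 3 falls, since these regions carry the largest called changes among those of covered length within 1.5 times. Within that limit covered length still moved with the counts, from 1003 and 1062 bp at E18 to 1426 and 1424 bp at E28 in LAMB1 and from 1064 and 1059 to 743 and 870 bp in FBN2. With it as an offset the differences were 2.28 for LAMB1, 1.78 for FBLN1, 1.03 for COL4A1, -1.59 for FBN2, -1.39 for COL4A2 and -1.40 for LAMA1, all past the threshold. They are from RefSeq's Sscrofa11.1 sequence, on the strand of the gene. Capitals mark matches on either strand to TGANTCA (AP-1), CAGCTG (E-box of myogenic and other bHLH factors), CATTCC (TEAD), TGTGGT (RUNX), GTAAACA (forkhead), the MEF2 motif and GGGCGG (Sp1). None of the 6 stretches held an annotated coding or UTR base.
LAMB1, rise, chr9:107716869-107717168, minus strand: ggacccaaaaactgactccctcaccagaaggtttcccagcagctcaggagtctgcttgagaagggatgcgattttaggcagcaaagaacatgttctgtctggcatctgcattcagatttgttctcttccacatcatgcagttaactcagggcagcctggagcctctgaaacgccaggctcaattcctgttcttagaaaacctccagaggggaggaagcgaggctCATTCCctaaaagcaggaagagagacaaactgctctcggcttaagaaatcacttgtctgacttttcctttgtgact
FBLN1, rise, chr5:3898999-3899298, minus strand: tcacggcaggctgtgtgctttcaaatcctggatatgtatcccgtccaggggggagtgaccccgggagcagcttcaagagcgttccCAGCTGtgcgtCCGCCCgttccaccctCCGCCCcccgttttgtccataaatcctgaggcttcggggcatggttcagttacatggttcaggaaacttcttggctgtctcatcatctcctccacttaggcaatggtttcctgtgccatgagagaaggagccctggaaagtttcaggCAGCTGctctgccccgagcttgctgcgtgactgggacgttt
COL4A1, rise, chr11:76919856-76920155, minus strand: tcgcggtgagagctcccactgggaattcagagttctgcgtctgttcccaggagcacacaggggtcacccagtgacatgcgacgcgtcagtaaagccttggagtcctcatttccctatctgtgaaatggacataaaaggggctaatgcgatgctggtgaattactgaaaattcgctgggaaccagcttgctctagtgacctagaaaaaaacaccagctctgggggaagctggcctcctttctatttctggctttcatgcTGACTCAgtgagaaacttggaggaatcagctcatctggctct
FBN2, fall, chr2:131364321-131364620, minus strand: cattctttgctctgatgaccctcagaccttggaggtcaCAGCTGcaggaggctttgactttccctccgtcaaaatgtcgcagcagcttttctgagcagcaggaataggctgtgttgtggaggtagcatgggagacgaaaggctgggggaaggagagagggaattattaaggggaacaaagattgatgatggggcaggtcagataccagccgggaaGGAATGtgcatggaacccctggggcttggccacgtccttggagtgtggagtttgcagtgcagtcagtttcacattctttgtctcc
COL4A2, fall, chr11:77108299-77108598, plus strand: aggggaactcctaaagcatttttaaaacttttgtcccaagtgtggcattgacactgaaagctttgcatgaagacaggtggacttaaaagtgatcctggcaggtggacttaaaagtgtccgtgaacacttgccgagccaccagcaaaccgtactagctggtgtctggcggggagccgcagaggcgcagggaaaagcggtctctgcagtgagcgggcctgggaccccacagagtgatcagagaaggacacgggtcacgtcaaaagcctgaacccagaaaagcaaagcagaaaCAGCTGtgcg
LAMA1, fall, chr6:100333205-100333504, plus strand: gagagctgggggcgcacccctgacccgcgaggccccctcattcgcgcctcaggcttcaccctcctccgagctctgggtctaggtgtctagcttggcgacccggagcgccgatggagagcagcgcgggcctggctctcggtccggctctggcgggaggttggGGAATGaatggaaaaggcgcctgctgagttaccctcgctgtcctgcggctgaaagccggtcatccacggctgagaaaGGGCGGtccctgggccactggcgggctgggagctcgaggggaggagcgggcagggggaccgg

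Each of these stretches held a match to 1 or 2 of the 7 motifs. The COL4A1 stretch held TGANTCA, which 9.71% of 76673 shared regions held in a window of the same length. LAMB1, FBN2 and LAMA1 held CATTCC (20.01% of shared regions), FBLN1, FBN2 and COL4A2 held CAGCTG (27.0%), and FBLN1 and LAMA1 held GGGCGG (26.9%). RUNX, forkhead and MEF2 letters were in none of the 6 and in 16.2%, 3.76% and 2.98% of shared regions. Over the 34 rising member regions the shares were 8.82% for TGANTCA, 26.5% for CAGCTG, 20.6% for CATTCC, 14.7% for TGTGGT and 26.5% for GGGCGG, against 7.37%, 23.8%, 18.6%, 13.5% and 37.9% of all rising regions of comparable length. These matches describe the letters only.

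The start of LAMA5, the largest fall among the 13 basement membrane windows, is shown from 250 bases before to 30 bases after the annotated start, with matches on either strand in capitals: TGANTCA for AP-1 factors, GGGCGG for Sp1, the CCAAT box and the TATAAA box.
LAMA5, chr17:61747766-61748045, minus strand: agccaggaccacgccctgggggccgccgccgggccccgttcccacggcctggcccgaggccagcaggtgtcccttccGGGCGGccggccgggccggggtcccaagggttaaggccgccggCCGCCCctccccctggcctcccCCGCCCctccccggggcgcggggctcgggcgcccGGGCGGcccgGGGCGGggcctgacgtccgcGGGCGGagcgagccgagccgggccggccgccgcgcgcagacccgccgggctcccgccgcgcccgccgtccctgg

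This stretch was 86.1% G and C and held GGGCGG on both strands, letters that 49.3% of 19559 protein-coding starts held in the same window. TGANTCA was in 5.77%, CCAAT in 34.3% and TATAAA in 10.5% of starts and not in this one.

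The cells were grouped without the members' or markers' regions, to see which cells carried the members' signal. Of 6 clusters, cluster 0 (24668 cells) had 3 of 11 mesenchymal markers raised, OSR1, PDGFRA and PRRX1, and was called fibroblast and mesenchyme-like. The name rests on few markers: 3 of 12 endothelial and 2 of 7 sclerotome and cartilage markers were raised as well, with mean log2 differences of -0.32 and 0.40 over those lists against 0.19 over the mesenchymal list. At a clustering resolution of 0.6 a cluster of 16245 cells, led by windows such as TRIM69, ASPN and OGN, had 1 of 11 mesenchymal markers raised and was unnamed, and 5414 cells carried the name. The 10 leading windows of cluster 0 at the main resolution included the matrix protein genes ASPN, OGN, ECM2 and KERA beside GFRAL, TRIM69 and others of no such role. The others were epithelial-like (13189 cells, with 5 of 8 epithelial markers raised, KRT8, KRT18 and EPCAM among them, and 3 of 5 cardiac markers), neural progenitor-like (9307), myogenic-like (6657, with MYOD1, MYOG and PAX7), neuron-like (2931) and endothelial-like (2057, with CDH5 and KDR). These classes are a description, with no test, and no doublet caller was run. Shares changed with stage: the fibroblast and mesenchyme-like class held 3.96% and 3.73% of cells in the E18 pair, 45.4% and 61.1% in the E21 pair and 77.4% and 70.2% in the E28 pair, and the epithelial-like class 61.7% and 46.3%, 7.30% and 6.26%, and 2.22% and 1.29%. The epithelial-like class was mostly of the 2 E18 libraries, so that stage and cell type cannot be told apart in it. Its mean over the mesenchymal list, 0.28 with 2 of 11 raised, was above the 0.19 of the fibroblast and mesenchyme-like class. Over the whole libraries the summed mesenchymal markers stood at 1067 and 1006 CPM in the E18 pair and 1064 and 991 CPM in the E28 pair.

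Fibrillar collagens had their highest group median in the fibroblast and mesenchyme-like class, as did other collagens (0.67) and other matrix genes (0.33). The median log2 difference of fibrillar collagens from all other cells was 0.61 (differences here use CPM plus 2). Of these, 4 of 5 were higher in all 6 libraries, as were 9.16% of all tested windows. At resolution 0.6 the median was 0.36 in the class of that name, 0.35 in the unnamed cluster and 0.34 in epithelial-like cells. COL1A1 measured 59.7 to 124 CPM in that class, median 92.0, and 44.4 to 67.6 CPM, median 54.6, in the other cells. The group's median was 0.28 in epithelial-like, -0.06 in myogenic-like, -0.68 in neural progenitor-like, -1.06 in endothelial-like and -1.31 in neuron-like cells, and all 5 were lower in each library in the last 2 classes, against 17.8% and 13.1% of all windows. DPT differed most among the members in the fibroblast and mesenchyme-like class, at 14.6 to 26.3 CPM against 3.78 to 9.16 CPM elsewhere, with no overlap. LUM measured 15.5 to 31.3 CPM against 6.65 to 14.8 CPM, again with no overlap.

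Basement membrane genes were spread over several classes. Their median log2 difference lay near zero in fibroblast and mesenchyme-like (0.00) and myogenic-like cells (0.00) and was 0.13 in both epithelial-like and endothelial-like cells. In the endothelial-like class COL4A1, COL4A2, LAMB2 and LAMC1 were higher in all 6 libraries and 3 other genes of the group lower in all 6, shares near those of all windows in that class (31.4% and 17.8%, with a median of 0.10). There COL4A1 measured 103 to 190 CPM, median 110, against a median of 84.9 CPM in the other cells. LAMA2 was highest in myogenic-like cells, at 68.6 and 81.3 CPM in the E18 pair, 138 and 174 in the E21 pair and 225 and 209 in the E28 pair, against 54.6 to 77.6 CPM in the other cells. COL4A2, COL18A1, SPARC and the tenascin gene TNC were also higher in all 6 libraries in the myogenic-like class, as were 7.39% of all windows. SPARC, which encodes a collagen-binding protein of basement membranes, was highest in the endothelial-like class, at 35.3 to 104 CPM against 13.3 to 36.2 CPM.

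**Figure D5:**
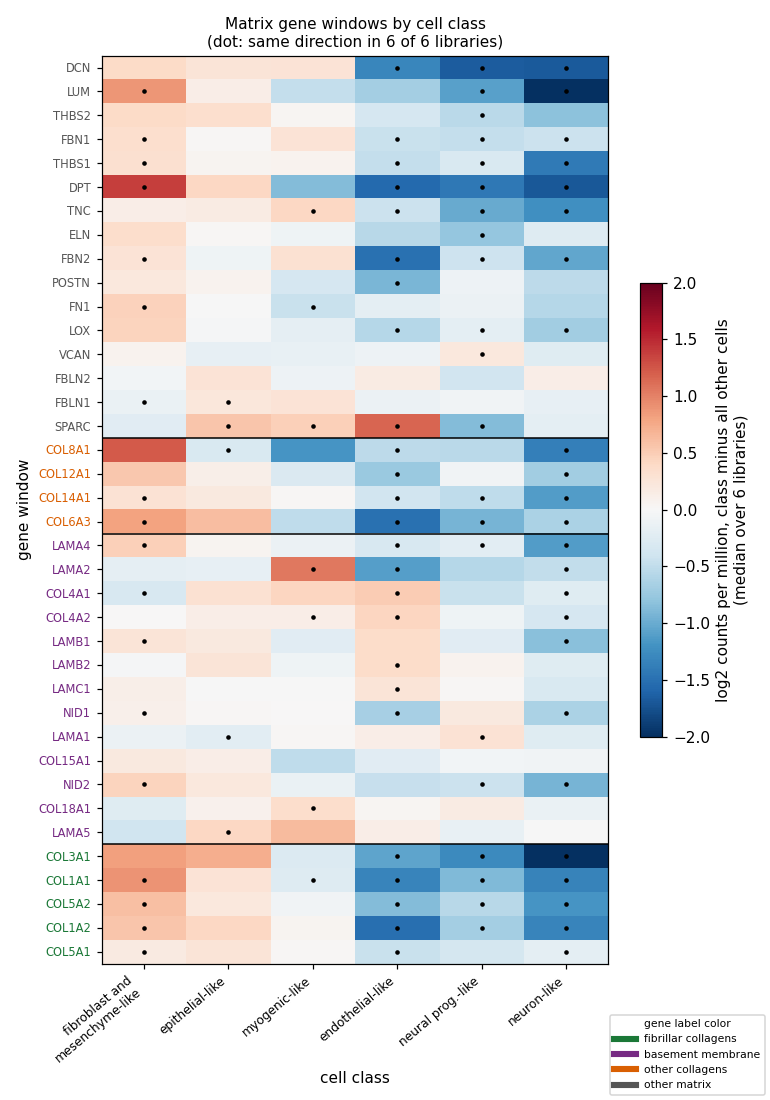
Median over 6 libraries of the log2 CPM of a class minus that of all other cells (color, red higher) for the 38 windows and 6 cell classes, with dots where the direction was the same in 6 of 6 libraries. Fibrillar collagens are red in the fibroblast and mesenchyme-like column and blue in the endothelial, neural progenitor and neuron-like columns, and LAMA2 is red in the myogenic-like column alone.

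Directions within the classes are a description, since the windows were chosen from sums over these same cells. Class levels also count each library's own peaks, so covered length enters them, with an E28 to E18 ratio of 0.326 to 0.623 in the 6 lower windows. The share of all windows that moved alike within a class was not counted. All 6 lower windows were lower at E28 than at E18 in both breeds within the fibroblast and mesenchyme-like, the myogenic-like and the epithelial-like classes, with median log2 differences in ZZ and DZ of -0.60 and -0.54, -0.54 and -0.68, and -0.76 and -0.82. In the endothelial-like and neuron-like classes 5 of 6 were lower in both breeds and in the neural progenitor-like class 4, and LAMA1 was higher in both breeds in neuron-like cells. Some classes held few cells at 1 stage: 55 and 177 neuron-like, 209 and 122 epithelial-like and 180 and 204 neural progenitor-like cells in the E28 pair, and 114 and 139 neuron-like cells in the E18 pair. Of the 19 higher windows, 17 were higher in both breeds within the fibroblast and mesenchyme-like class (medians 0.56 and 0.80), 14 in the myogenic-like, 12 in the epithelial-like and 12 in the neural progenitor-like class. Only 4 were so in the endothelial-like class, where 10 were lower in both breeds, among them COL1A2, COL3A1, COL12A1 and LUM, and 4 in the neuron-like class. In the myogenic-like class the LAMA2 window was higher at E28 by log2 1.68 in ZZ and 1.34 in DZ, and COL8A1 lower by -0.93 and -1.03, while in the fibroblast and mesenchyme-like class COL8A1 was higher by 1.91 and 1.73. How much of the summed changes came from the changed shares was not tested.

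Genes that process, bind or cut the matrix were called in both directions between E18 and E28 over whole windows, where 20.6% of all windows were higher and 21.8% lower. Of 26 collagen processing genes, 8 were higher and 8 lower at E28, with a median log2 of -0.06. Among the prolyl hydroxylases P4HA3 (1.16) and P4HA1 (0.73) rose and P4HA2 (-0.55) and P3H3 (-0.40) fell. The lysyl oxidase family members LOXL3 (-1.33), LOXL4 (-1.01) and LOXL1 (-0.34) fell while LOXL2 (0.52) rose. With covered length as an offset 1 of the 26 was higher and 10 lower, and in comparable regions alone 2 of 24 were higher and 7 lower. Of 25 matrix receptors 2 rose, the collagen receptor DDR2 (0.59) and the hyaluronan receptor CD44 (0.42), and 7 fell. The falls were the laminin receptor subunits ITGA6 (-0.78), ITGA3 (-0.59) and ITGB4 (-0.43), the laminin receptor DAG1 (-0.27), the collagen receptor subunit ITGA11 (-0.56), ITGA5 (-0.31) and SDC3 (-0.75). ITGB1 (-0.28, adjusted p = 0.0897) and ITGA7 (-0.05), further laminin receptor subunits, did not pass, and the receptors had 4 higher and 6 lower with the offset and 3 and 3 in comparable regions alone. Of 16 proteases and inhibitors 3 were higher and 6 lower, with MMP9 at -1.41 and TIMP1 at -0.82, and with the offset 0 were higher (12.4% of all windows) and 9 lower (25.3%). Of 12 cartilage matrix genes with a window, COL9A1 (0.33) rose and COMP (-1.15) and ACAN (-0.89) fell. With the offset, in comparable regions alone and at the promoter 0 were higher (12.4%, 15.1% and 14.9% of all windows). In these settings 3 of 12, 1 of 9 and 2 of 12 were lower (25.3%, 17.2% and 16.6% of all windows). Of 16 further basement membrane genes 10 fell, with a median of -0.62, including perlecan HSPG2 (-0.65), LAMC3 (-0.76), LAMB3 (-0.99) and COL4A5 (-0.89), and EGFL6 alone rose (1.95 ± 0.19, from 8.03 and 7.15 CPM to 26.0 and 34.8 CPM). With the offset 5 of these 16 were lower and 1 higher.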

How the data were processed

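Cells of 6 libraries had been profiled by 10x single-cell ATAC-seq. The authors aligned reads to Sscrofa11.1, called cells and called peaks in each library with Cell Ranger ATAC (version 1.2.0 in the submitters' processing notes) and deposited raw counts of Tn5 cut sites per peak and barcode, with peak coordinates as the other files. Genes were taken from the RefSeq annotation of the same assembly, release 106. Barcodes of 2000 to 30000 counts were kept, without a doublet caller.

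Counts were summed per library over every peak touching a gene body or the 2 kb before its start, and over merged regions with a peak in all 6 libraries. Windows and regions were fitted with edgeR 4.0.16 (R 4.3.3) by quasi-likelihood with additive stage and breed, TMM scaling, filterByExpr and 2 residual degrees of freedom, and p-values were adjusted by Benjamini-Hochberg over all 23286 windows or 78533 regions at 0.05. DESeq2 1.42.0, other scalings, filters, barcode limits, covered length as an offset, comparable regions alone, a promoter window and each library left out were the alternatives. Cells were clustered by leidenalg 0.10.2 on latent components of regions away from members and markers. The fits were tested on simulated data. No column lacked a sample (0 unmapped).

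Members, lists and tests were chosen with earlier results of these data known. Named with full values were the up to 3 members of each role with the largest called difference between E28 and E18, those called in the other comparisons, and the largest called changes among regions whose covered lengths differed by at most 1.5 times. Cut sites are not independent molecules. Gene expression was not analysed here.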

Additional observations from a re-analysis of the deposited data

Results flagged for a closer look

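SPARC moved in opposite directions in the 2 breeds, a difference that was not tested since there was 1 library for each stage and breed. Its window measured 30.9, 16.1 and 14.5 CPM at E18, E21 and E28 in ZZ and 23.4, 37.5 and 35.0 CPM in DZ. As log2 ratios of CPM, E28 minus E18 was -1.10 in ZZ and 0.58 in DZ, and E21 minus E18 was -0.94 in ZZ and 0.68 in DZ. Covered length moved alongside, at 10715, 3896 and 2755 bp for ZZ against 6303, 8757 and 5392 bp for DZ, and its part in the difference was not tested.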

How the results depend on the processing

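Another scaling, no filter on low counts and other barcode limits kept each count of called members within 1.5 times of the count reported. With covered length as an offset 14 windows were called between E18 and E28 (37.7% of all windows) and 5 between E18 and E21 (12.5%). The steps to and from E21 had 52 and 42 regions called (15.7% and 15.1% of all regions). In the promoter window the counts were 16, 0 and 0 windows for E28 against E18, E21 against E18 and E28 against E21. Of all such windows 31.5%, 0.297% and 1.99% were called. Comparable regions alone gave 0 and 2 windows in the steps to and from E21 (1.013% and 1.067% of all such windows). They gave 29 regions between E18 and E28 and 12 between E18 and E21 (35.04% and 9.40% of all such regions). These region counts came from a fit of the 25935 regions within 1.5 times among all 6 libraries rather than among those compared. DESeq2 called 18 windows and 69 regions between E18 and E21, 22 and 58 between E21 and E28, and 2 and 1 between the breeds, where it called 34.1% of all windows and 18.1% of all regions, 34.5% and 19.7%, and 2.26% and 0.202%. Regions with a peak in at least 2 libraries gave 0 calls in both steps involving E21, among the members and over all 220421 such regions. The cause of these shifts was not tested.

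Leaving out 1 library gave 7 to 23 windows and 41 to 109 regions between E18 and E28, 0 to 14 windows and 0 to 77 regions between E18 and E21, 0 to 7 windows and 0 to 53 regions between E21 and E28, and 0 of either between the breeds. Such fits leave a stage with 1 library, assumed to vary like the others. The windows named with full values gave 19 results, since some were called in more than 1 comparison. Of these results the most lost their call without E18 DZ and the fewest without E28 ZZ. COL8A1 reversed to -0.44 in the promoter window, COL12A1 to -0.01, COL14A1 to -0.13 and DCN to -0.074 with the offset, and COL14A1 to -0.25 in comparable regions and -0.36 in the promoter window. At clustering resolution 0.6, 2 of 24 class medians moved by over 1 SD, and that of fibrillar collagens in fibroblast and mesenchyme-like cells went from 0.61 to 0.36. Stage comparisons were paired by breed, and the breed comparison by stage, through the additive term of the fit. Without that term 23, 4 and 6 windows were called for E28 against E18, E21 against E18 and E28 against E21, and 0 between the breeds. Of all windows 46.6%, 3.47%, 7.75% and 0% were called in these fits.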
